A study of Caenorhabditis elegans with 10 samples.

Results

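The genes described here are the 72 histone genes of Caenorhabditis elegans, taken from 46589 genes listed in the count tables. They were chosen by name: sequence names were matched to gene symbols, and each gene whose symbol is his followed by a number was kept. RNA of whole animals was sequenced from 10 libraries, 1 male and 1 hermaphrodite at each of 5 windows, which open 30, 36, 42, 48 and 54 h after hatching and last 4 h each. The labels call the first window late L3, the next early L4, then late L4, and both of the last ones young adult. Males and hermaphrodites at all windows were him-5 animals, a genotype known for a high share of male progeny, grown at 20 °C on bacteria, so no library comes from a strain without that allele. The young adult stage therefore has 2 libraries per sex, and the other stages have 1. The labels do not say whether libraries came from separate cultures, so a p-value reflects only how these samples scatter, and that scatter may be technical. In young adults the 2 libraries of a sex come from different windows, so their scatter also holds any change with age.

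Histones are the proteins on which nuclear DNA is wound. Each nucleosome holds the core histones H2A, H2B, H3 and H4, and the linker histone H1 binds the DNA between nucleosomes. In animals most core histone genes are small, lack introns and are transcribed mainly while DNA is replicated, and their mRNA usually ends in a stem-loop instead of a poly(A) tail. A second kind, which includes the H3.3 genes, is transcribed outside S phase too and often has introns. In the adult worm the germ line is the tissue where cells still divide, and hermaphrodites also store histone mRNA and protein in oocytes for the embryo.

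By coding length there were 16 H4 genes (103 codons), 15 H3 genes (136 codons), 17 H2A genes (127 codons) and 16 H2B genes (122 or 123 codons). The others were 5 genes known to encode H3.3 or proteins close to it (his-69, his-70, his-71, his-72 and his-74), the linker histone gene his-24, and the short genes his-73 (46 codons) and his-39 (67 codons). They lie in 19 clusters, 14 of them with more than 1 gene, when genes no more than 5000 bases apart are joined. Chromosome V holds 27 of the genes, IV holds 22, II holds 14, X holds 4, III holds 3 and I holds 2. Divergent neighbours make up 31 pairs (62 genes), with annotated starts 228 to 369 bases apart. Of these pairs 16 join an H2A to an H2B gene, 14 join an H3 to an H4 gene, and the pair on chromosome I joins the H4 gene his-67 (WBcel235, I:9988452-9988763, minus strand) to the H2A gene his-68 (I:9989132-9989515, plus strand). Only 7 genes are annotated with an intron (his-24, his-35, his-37, his-41, his-71, his-72 and his-74), and the same 7 have an annotated UTR, going by the first transcript listed. The H2A gene his-57 has longer transcripts beside an intronless one.

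Many copies could hardly be read. Reads that aligned to several places, 11.23% to 17.83% of the reads of a library, were given to no gene, so a gene with a twin elsewhere keeps only the reads that differ from it. Of the 72 genes, 31 had fewer than 100 reads over all 10 libraries, and together these 31 held 701 of the 433286 histone reads (0.162%). Ensembl gives 36 of the genes a symbol that another copy also carries (14 such symbols). Of these 36, 29 were under 100 reads, with a median total of 29 reads, against 2 of the 36 genes with a symbol of their own, whose median total was 4768. The low values of these copies therefore do not show whether they are transcribed.

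The low counts went by cluster. The largest cluster, from his-16 to his-42 on chromosome II (13817760 to 13828697), held 13 genes and 512 reads, and 12 of its genes were under 100 reads. The cluster from his-50 to his-53 on chromosome V held 6 genes and 47 reads, and his-52 had no read in any library. At the other end, the 4 genes from his-61 to his-59 on chromosome IV (7485834 to 7488659) held 166022 reads. A single pair could be split between both extremes: the H2B gene his-48 had 32797 reads and its divergent H2A partner his-47, whose symbol is shared with his-57 and his-65, had 115.

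**Figure D1:**
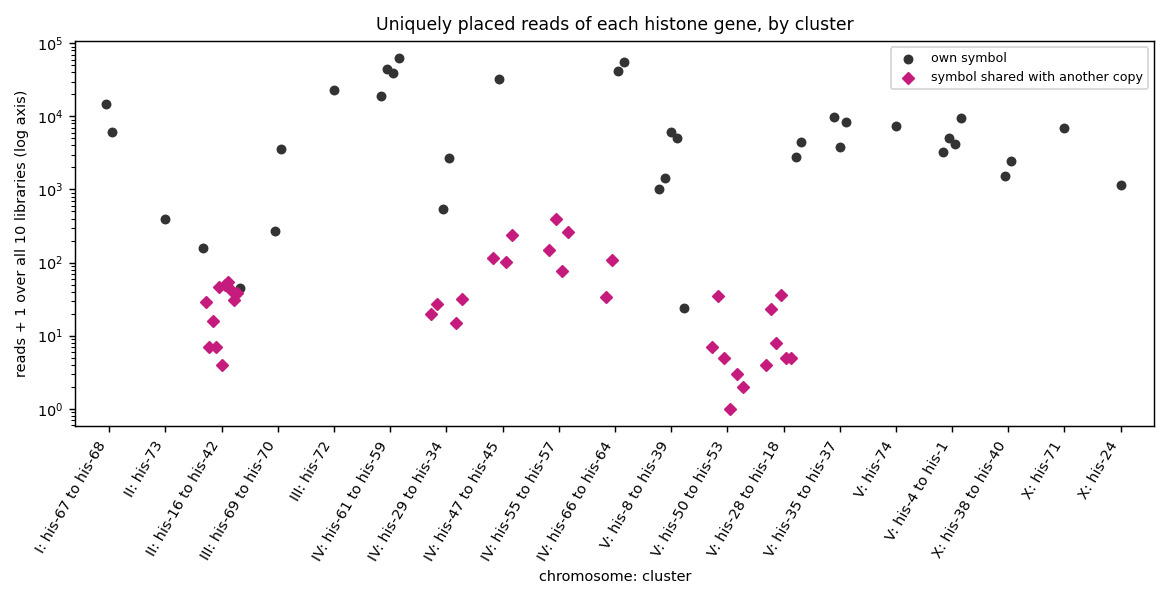
Reads of each of the 72 histone genes summed over the 10 libraries, plus 1, on a log axis, by cluster in order along the chromosomes. Genes with a symbol of their own (circles) reach 62422 reads, whereas genes that share a symbol with another copy (diamonds) have at most 393.

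Across the whole series, a library held 8189325 to 27907544 reads on genes, of which 16307 to 125339 were histone reads. The male library of 54 to 58 h had 25.38% of its reads not aligned, against 3.309% to 13.49% in the other 9. Ribosomal RNA genes held 4.611% to 8.61% of gene reads in males and 5.337% to 11.25% in hermaphrodites, with the highest share in the hermaphrodite library of 54 to 58 h. The sex labels were met by mab-3, a male fate gene, and pkd-2, a gene of male sensory neurons, which were higher in males, and by the yolk protein gene vit-2, which was lower in males. Levels below are CPM, read counts scaled to a common library size, after TMM, a method that sets the bulk of genes equal between libraries, and values in a series of 5 are in order of time.

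Summed over all copies, histone reads were at a similar level in both sexes up to early L4 and lower in males from late L4 on, with 1 library per sex and window and no test of the sum. The 72 genes summed to 2469, 1764, 1543, 1700.1 and 1451 CPM in males and to 2393, 1863, 3115, 5957 and 8461 CPM in hermaphrodites. The male sum divided by the hermaphrodite sum was 1.03, 0.947, 0.495, 0.285 and 0.172 in order of time. The mean male sum of the 2 young adult windows divided by the mean hermaphrodite sum was 0.219, and the SD of the 2 window ratios was 0.0805. In RNA of whole animals, fewer cells of a type and less RNA per cell cannot be told apart, and nothing here separates the germ line from the soma. Whether the libraries were made from poly(A)-selected RNA is not given in the sources used here. If they were, the sums cover only histone mRNA with a poly(A) tail, and genes with and without introns could not be compared by level.

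Summed by class, the 4 core classes had much the same pattern. At 54 to 58 h the H3 genes summed to 346 CPM in the male and 2621 CPM in the hermaphrodite library, a ratio of 0.132. The ratio was 0.152 for H2A genes, 0.162 for H4 genes and 0.189 for H2B genes, and 0.412 for the 5 H3.3 genes. At 30 to 34 h these 5 ratios were 0.989 to 1.13. Such sums rest largely on the genes with most reads. Of the 2621 CPM of the H3 genes, his-59 held 1186 and his-63 held 912. Single genes within a class differed more, as given below.

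The single genes were tested with edgeR's quasi-likelihood test with Benjamini-Hochberg adjustment over all genes tested, and a gene was called at an adjusted p under 0.05. Of the 72 histone genes, 41 passed the filter of at least 1 CPM in at least 2 libraries, and the 31 that did not pass are the 31 with fewer than 100 reads. Changes are log2 ratios of males over hermaphrodites, each with an approximate SE taken from the test's F value.

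In young adults (2 male against 2 hermaphrodite libraries) 34 of the 41 tested histone genes were lower in males (82.9%) and 1 was higher. Among the lower ones, his-46, his-47, his-55 and his-65 reached 1 CPM in hermaphrodite libraries only, so the filter favoured this direction for them. Of all genes tested, 29.6% were called lower and 33.2% higher. The median log2 ratio was -2.42 over the tested histone genes and 0.33 over all genes tested. Of the 34 genes, 27 have a symbol of their own and 7 share theirs with another copy, and the reads of these 7 cannot be assigned with certainty. The genes not called were his-16, his-69, his-35, his-41, his-37 and his-71. With library size as the only scaling the median of all genes moved to 0.63 and that of the histone genes to -2.11, 30 histone genes were lower, and his-71 was called higher beside his-70.

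**Figure D2:**
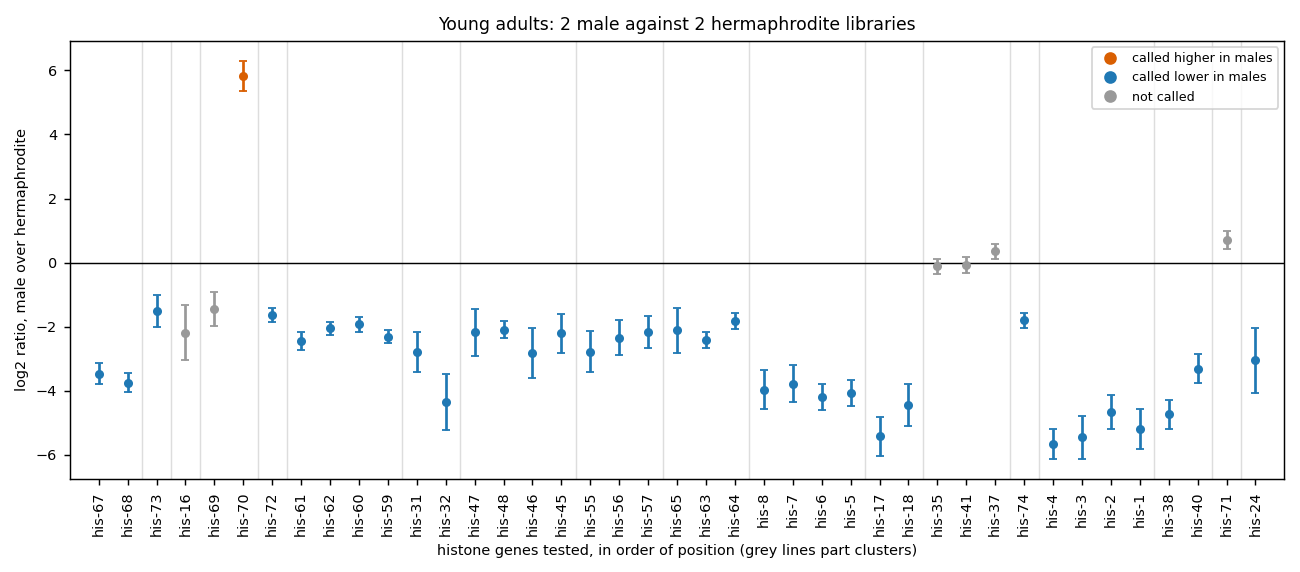
Log2 ratio of males over hermaphrodites in young adults for each of the 41 tested histone genes, in order of position. Points are edgeR estimates, bars are the approximate SE (2 libraries per sex), and colours give the call. His-70 stands at 5.83 above 0, and the genes with the lowest ratios, -5.65 to -5.43, lie on chromosome V.

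By uniquely placed reads, the histone genes with the highest levels lie on chromosome IV. How much of each gene can give such reads was not measured. The order below is therefore one of readable levels, and copies with few reads could stand higher. Per kilobase of annotated exon, which here is coding length for genes without an annotated UTR, the mean level over the 10 libraries was highest for the H4 gene his-64 (1241 CPM per kb), then the H3 gene his-59 (1081), the H4 gene his-60 (907), the H2B gene his-62 (847), the H3 gene his-63 (712) and the H2B gene his-48 (616). Neighbours in this order differ by less than the spread of each gene over the hermaphrodite windows. That spread holds the change with age and is not an error of the level, and the order was not tested. The H2A gene of highest level was his-61, at 354 CPM per kb.

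His-59 (IV:7488249-7488659, plus strand) had 304, 230.1, 223, 234 and 199 CPM in males and 286, 285, 534, 962 and 1186 CPM in hermaphrodites. His-64 had 252, 229, 242, 273 and 209 CPM in males and 245, 224, 489, 719.8 and 989 CPM in hermaphrodites. For both genes the sexes were close at the first 2 windows, and each hermaphrodite library from 42 to 46 h on was above every male library. In young adults the log2 ratio was -2.31 ± 0.20 for his-59 (adjusted p = 0.000629) and -1.82 ± 0.24 for his-64 (adjusted p = 0.0018).

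The other core genes of these clusters behaved likewise. The H4 gene his-60 had 189, 173, 150.4, 189 and 137 CPM in males and 205, 212, 341, 541 and 695 CPM in hermaphrodites. The H3 gene his-63 had 149, 129, 142, 168 and 125 CPM in males and 156, 147, 344, 656 and 912 CPM in hermaphrodites. Male values stayed within a narrow band, whereas each hermaphrodite library from 42 to 46 h on was above all of the male ones. The H2B gene his-62 had 195, 162, 174, 203 and 172 CPM in males and 184, 159, 352, 690.2 and 859.9 CPM in hermaphrodites. The H2B gene his-48 had 128, 96.8, 133, 152 and 135 CPM in males and 98.4, 92.4, 235, 485 and 736 CPM in hermaphrodites. For his-48 the hermaphrodite library was the lower one at 30 to 34 h and 36 to 40 h. The H2A gene his-61 had 52.6, 50.7, 60.9, 82.4 and 55.1 CPM in males and 56.8, 88.6, 162, 331 and 419 CPM in hermaphrodites.

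The divergent pair on chromosome I, an H4 and an H2A gene, was lower in young adult males. His-67 had 25.1, 27.1, 32.4, 38.7 and 25.1 CPM in males and 28.7, 34.3, 116, 289 and 414 CPM in hermaphrodites. His-68 had 6.69, 5.88, 11.9, 12.2 and 11.03 CPM in males and 8.86, 13.0, 53.4, 123 and 189 CPM in hermaphrodites. The hermaphrodite library was the higher one at each of the 5 windows for both genes. In young adults the log2 ratio was -3.46 ± 0.32 for his-67 (adjusted p = 0.000782) and -3.75 ± 0.29 for his-68 (adjusted p = 0.00052).

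The core genes of 3 clusters on chromosome V had another time course, with low male values from late L4 on. The 4 genes from his-4 to his-1 (V:16040144-16042831), 1 of each core class, summed to 213, 36.1, 10.8, 8.75 and 18.4 CPM in males and to 190.3, 68.3, 68.4, 316 and 675 CPM in hermaphrodites. The sexes were close at 30 to 34 h, both were lower at 36 to 40 h, and only the hermaphrodite sum was high again in the young adults. The genes from his-8 to his-39 summed to 163, 36.7, 12.1, 11.5 and 17.0 CPM in males and to 184, 78.6, 36.8, 164 and 320.2 CPM in hermaphrodites. The genes from his-28 to his-18 summed to 95.1, 30.2, 2.72, 2.31 and 6.86 CPM in males and to 106, 59.4, 19.9, 73.9 and 164 CPM in hermaphrodites, nearly all of it from his-17 and his-18. In this cluster the lowest hermaphrodite value was at 42 to 46 h and the lowest male value at 48 to 52 h.

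**Figure D3:**
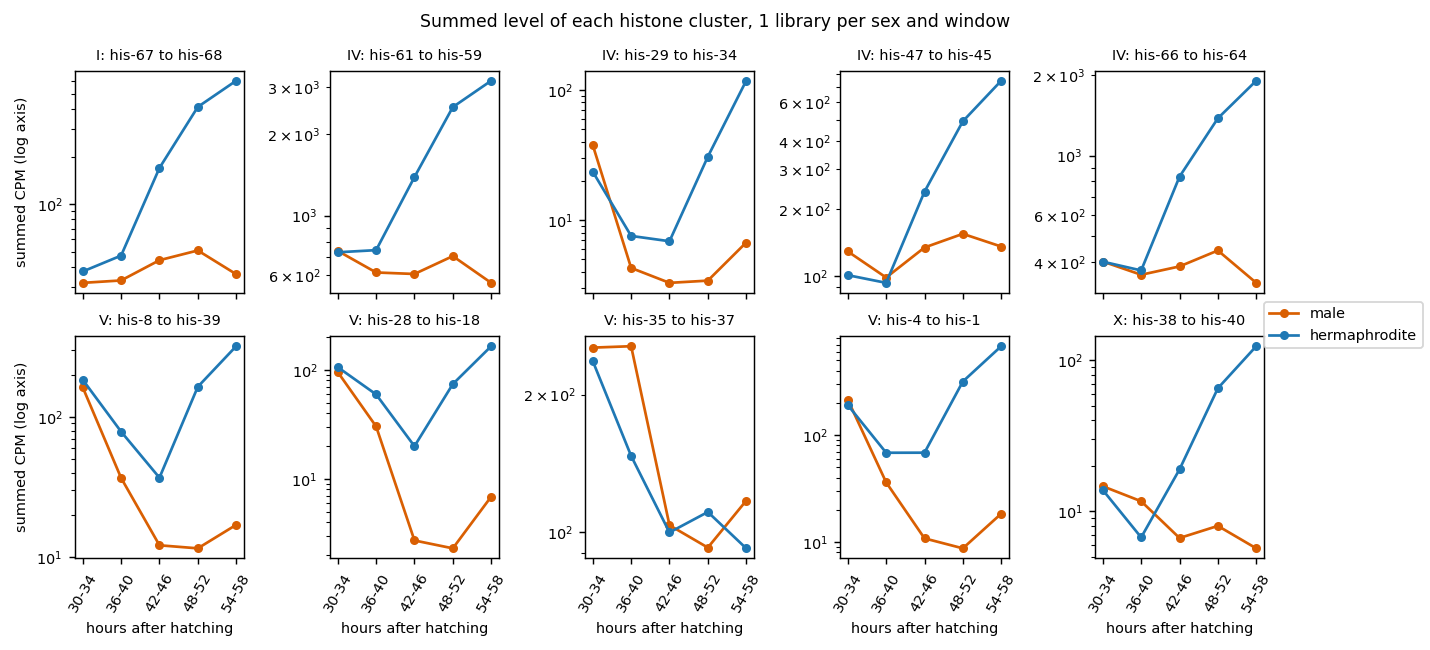
Summed level (CPM, log axes that differ between panels) at each window of 10 of the 14 histone clusters with 2 or more genes (his-69 with his-70 and the 3 clusters with fewest reads are left out), with 1 library per point. Male lines on chromosomes I and IV are nearly level except for his-29 to his-34, male lines of 3 clusters on V drop to 18.4 CPM or less at 54 to 58 h, and the his-35 to his-37 lines of both sexes cross.

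The genes with the lowest young adult ratios, his-4, his-3 and his-17, lie in these clusters. The tested genes from his-8 to his-39 were at -4.19 to -3.79, above his-38 on X at -4.74. The H2B gene his-4 (V:16040144-16040515, minus strand) had 23.8, 5.06, 2.72, 1.19 and 1.93 CPM in males and 20.3, 8.68, 10.9, 54.5 and 104 CPM in hermaphrodites, a log2 ratio of -5.65 ± 0.47 in young adults (adjusted p = 0.000606). The H2A gene his-3 had 44.7, 11.1, 2.05, 1.19 and 3.86 CPM in males and 46.7, 25.5, 15.1, 69.8 and 153 CPM in hermaphrodites, a ratio of -5.45 ± 0.68 (adjusted p = 0.00156). The H3 gene his-17 had 40.1, 10.8, 1.34, 0.557 and 1.54 CPM in males and 41.3, 17.7, 6.63, 29.5 and 61.8 CPM in hermaphrodites, a ratio of -5.43 ± 0.62 (adjusted p = 0.00122). For his-4, his-3 and his-17 the 2 male young adult libraries lie far below both hermaphrodite ones. The male libraries of 30 to 34 h, in contrast, stood beside the hermaphrodite ones. The H3 gene his-6, the third H3 gene by mean level, had 70.8, 16.5, 7.55, 5.01 and 6.94 CPM in males and 80.4, 33.01, 19.2, 76.3 and 142 CPM in hermaphrodites.

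The his-31 and his-32 genes on chromosome IV and the his-38 and his-40 pair on X also had low adult male values. The H3 gene his-32 had 32.7, 3.09, 2.62, 1.35 and 4.47 CPM in males and 21.5, 6.85, 4.69, 22.9 and 96.7 CPM in hermaphrodites. The H4 gene his-38 had 3.48, 1.30, 1.54, 1.27 and 1.85 CPM in males and 5.42, 0.343, 7.32, 29.0 and 54.9 CPM in hermaphrodites. Both male young adult libraries were below both hermaphrodite ones for these genes, and the log2 ratio there was -4.35 ± 0.88 for his-32 (adjusted p = 0.00736) and -4.74 ± 0.45 for his-38 (adjusted p = 0.000832).

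Members of a divergent pair had similar ratios in young adults, but so did genes of 1 cluster that are not partners. In the clusters with 4 tested genes the ratios ran from -2.45 to -1.92 (his-61 to his-59) and from -4.19 to -3.79 (his-8 to his-39). They ran from -2.83 to -2.09 (his-47 to his-45) and from -5.65 to -4.67 (his-4 to his-1). Both genes were tested in 15 pairs, and in 14 of them both were called lower in males, where 34 of all 41 tested histone genes were. The absolute difference between the log2 ratios of the partners had a median of 0.402, with a range of 0.0458 for his-35 and his-41 to 1.57 for his-31 and his-32. Partners share their libraries, so this is a description and not a test, and it does not show a likeness particular to partners.

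In young adults 3 of the 7 spliced genes (his-24, his-72 and his-74) were called lower in males, and 31 of the 34 intronless genes tested were, the others being his-16, his-69 and his-70. The 7 spliced genes summed to 605, 492, 286, 249 and 275 CPM in males and to 589, 351, 311, 474 and 611 CPM in hermaphrodites. The 65 intronless genes summed to 1864, 1272, 1257, 1452 and 1177 CPM in males and to 1804, 1512, 2804, 5483 and 7849.8 CPM in hermaphrodites. The difference between both kinds of gene was not tested.

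None of the spliced core genes of chromosome V was called between the sexes in young adults. The H2A gene his-35 (V:9544659-9545288, minus strand) had 107, 111, 43.5, 40.9 and 55.1 CPM in males and 100.5, 61.3, 40.1, 56.1 and 47.7 CPM in hermaphrodites. The H2B gene his-41 had 51.1, 36.1, 19.1, 17.2 and 19.5 CPM in males and 47.7, 24.8, 18.4, 20.9 and 17.6 CPM in hermaphrodites. The H4 gene his-37 had 94.9, 108, 41.1, 34.6 and 42.7 CPM in males and 88.4, 60.8, 41.4, 33.8 and 26.9 CPM in hermaphrodites. The values of the sexes overlap for each of these genes, the last larval window was already low, and the young adult log2 ratios were -0.11 ± 0.24 for his-35, -0.07 ± 0.25 for his-41 and 0.35 ± 0.24 for his-37 (adjusted p = 0.695, 0.82 and 0.254 by edgeR). With library size as the only scaling the ratios of his-35 and his-41 turned to 0.20 and 0.24, neither of them called.

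The H3.3 genes, whose product replaces H3 outside replication, were called lower, higher or not at all in young adult males. His-72 (III:12367475-12369050, minus strand, 1 intron), known to encode H3.3, had the highest level of the 5 genes, 257 CPM per kb on average. It had 212, 129, 103, 84.4 and 93.9 CPM in males and 226, 119, 119, 233 and 319 CPM in hermaphrodites. His-74 (V:12659704-12660330, minus strand) had 26.2, 23.7, 38.01, 35.5 and 36.7 CPM in males and 27.5, 25.1, 57.0, 108 and 144 CPM in hermaphrodites. Both male young adult libraries were below both hermaphrodite ones for his-72 and his-74, with log2 ratios of -1.63 ± 0.23 (adjusted p = 0.00211) and -1.80 ± 0.23 (adjusted p = 0.00161).

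His-71 (X:7981382-7982070, minus strand, 2 introns), known to encode H3.3 as well, had 100.4, 79.2, 40.6, 34.4 and 23.5 CPM in males and 88.9, 54.4, 34.3, 17.1 and 18.3 CPM in hermaphrodites. Each later male library was below the one before, and the male library was the higher one at every window. The young adult log2 ratio was 0.71 ± 0.28 (adjusted p = 0.0661), which did not pass the threshold.

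His-70 (III:4059715-4060119, minus strand, 134 codons) was the only tested histone gene called higher in males, apart from his-71 where library size was the only scaling. It had 23.7, 39.0, 39.9, 55.2 and 45.0 CPM in males and 3.86, 16.7, 5.26, 1.25 and 0.473 CPM in hermaphrodites. All 5 male libraries were above all 5 hermaphrodite ones, and the highest hermaphrodite value was at 36 to 40 h. In young adults the log2 ratio was 5.83 ± 0.47 (adjusted p = 0.000561). Its neighbour his-69 (III:4058360-4058743, 127 codons), on the same strand with a gap of 971 bases, had 1.74, 1.45, 0.719, 1.75 and 1.00 CPM in males and 1.77, 1.60, 1.60, 3.50 and 4.05 CPM in hermaphrodites. The his-69 ratio in young adults was -1.45 ± 0.53 (adjusted p = 0.0545), so it was not called.

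**Figure D4:**
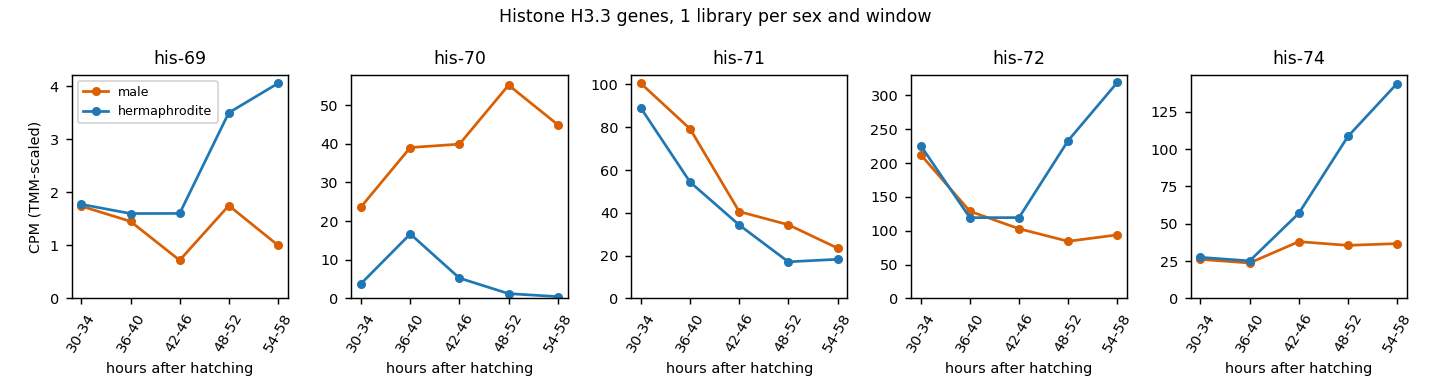
Level (CPM, linear axes from 0 that differ between panels) of the 5 H3.3 genes at each window, with 1 library per point. The male line is above the hermaphrodite line at every window for his-70 and his-71, and below it in both young adult windows for his-69, his-72 and his-74.

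The linker histone gene his-24 (X:14490094-14491119, plus strand, 208 codons) had 13.0, 5.36, 0.719, 1.51 and 3.55 CPM in males and 10.01, 5.25, 0.801, 4.56 and 37.7 CPM in hermaphrodites. Both sexes were lowest at 42 to 46 h, and the last hermaphrodite library was the highest. The young adult log2 ratio was -3.06 ± 1.02 (adjusted p = 0.0418). The short gene his-73 had 3.302, 1.90, 2.05, 1.27 and 2.24 CPM in males and 1.36, 3.08, 3.09, 4.50 and 5.54 CPM in hermaphrodites, with a ratio of -1.51 ± 0.49 (adjusted p = 0.0378). With library size as the only scaling neither gene was called (adjusted p = 0.0764 for his-24 and 0.0871 for his-73 by edgeR). The other short gene, his-39, had 23 reads in all and was not tested.

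Over all 5 windows, with the window as a block, 4 of the 41 tested genes were called lower in males (9.76%) and 1 higher, where 3.56% of all genes tested were called lower and 15.3% higher. The median log2 ratio was -1.22 over the tested histone genes and 0.21 over all genes tested. The lower genes were the H2B gene his-8 at -3.21 ± 0.85 (adjusted p = 0.0391), the H4 gene his-18 at -2.88 ± 0.81 (0.0463), his-68 at -2.24 ± 0.59 (0.039) and his-61 at -1.45 ± 0.41 (0.0466). His-70 was higher at 3.62 ± 0.85 (0.0317). All 5 genes had the same direction at each of the 5 windows.

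The values of the genes not yet given show how the gap grew. His-8 had 7.21, 0.781, 0, 0.795 and 2.31 CPM in males and 7.82, 5.83, 1.26, 16.6 and 32.4 CPM in hermaphrodites. His-18 had 54.5, 19.2, 0.925, 1.67 and 4.93 CPM in males and 63.6, 41.2, 13.3, 43.3 and 101 CPM in hermaphrodites. The sexes were within a narrow margin at 30 to 34 h and apart from 36 to 40 h on. The count of 5 called genes fell to 0 without the libraries of 42 to 46 h or those of 48 to 52 h, to 1 without those of 54 to 58 h and to 2 without the male library of 54 to 58 h alone, and was 12 without those of 30 to 34 h.

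Window by window, with 1 library per sex and therefore no test, the number of tested histone genes at least 4-fold lower in males (ratio of CPM + 1, where the higher of both libraries had 5 CPM or more) was 0, 0, 5, 16 and 25 of 41. Of all genes tested, 0.226%, 0.553%, 1.7%, 4.92% and 7.1% were past this fold at the same windows. The first 5 genes past it, at 42 to 46 h, were his-1, his-2, his-3, his-18 and his-68. At 54 to 58 h the 25 included all 4 genes from his-61 to his-59 and all 4 from his-4 to his-1.

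The change with age was measured as a slope in log2 per 6 h window in each sex. In hermaphrodites 15 of the 41 tested histone genes rose over the 5 windows (36.6%) and 4 fell (9.76%), where 20.9% of all genes tested rose and 16.9% fell. His-55, among those that rose, reached 1 CPM only in hermaphrodites from 42 to 46 h on, so the filter favoured this direction. The median slope was 0.56 over the tested histone genes and -0.15 over all genes tested. The split of all genes depends on the scaling: 3332 rose and 2684 fell, against 2583 and 3240 with library size only, where 12 histone genes rose and 4 fell. The steepest rises were those of his-68 (1.21 ± 0.13 per window, adjusted p = 0.00129), his-67 (1.07 ± 0.11, adjusted p = 0.00129) and his-38 (0.99 ± 0.32, adjusted p = 0.0395). The genes that fell were his-70 (-1.19 ± 0.36, adjusted p = 0.032), his-71 (-0.61 ± 0.08, adjusted p = 0.00145), his-37 (-0.43 ± 0.11, adjusted p = 0.0148) and his-41 (-0.32 ± 0.11, adjusted p = 0.0454). With a window or a library left out, the slope of his-38 was 0.86 to 2.12 and that of his-70 was -1.76 to -0.74, and each lost its call in 4 of 6 such fits, as his-37 did in 3. His-38 was also not called with library size only (adjusted p = 0.0514 by edgeR), nor his-41 with RLE factors (0.0838).

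Of the 7 spliced genes 1 rose (his-74) and 3 fell in hermaphrodites, and of the 34 intronless genes tested 14 rose and 1 fell. Of all genes tested, 20.9% rose and 16.9% fell, and the difference between both kinds of gene was not tested. All 4 genes from his-61 to his-59 rose, at 0.48 to 0.77 per window. None of the 4 genes from his-4 to his-1 passed the test for a straight line, with slopes of 0.46 to 0.67, and their values at 30 to 34 h were above those of the next window. The count of 19 slopes called in hermaphrodites was 12 without the libraries of 48 to 52 h and 11 without those of 54 to 58 h.

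In males no tested histone gene rose and 1 fell, where 0.276% of all genes tested rose and 0.314% fell. The gene that fell was his-71, at -0.54 ± 0.08 per window (adjusted p = 0.0396), and this call was lost when any 1 window was left out. So few calls do not show that male levels were steady, and DESeq2 called 3 slopes (its share of all genes is not given here). The median male slope was -0.21 over the tested histone genes and -0.01 over all genes tested, and the split of all genes was 44 that rose and 50 that fell, against 64 and 32 with RLE scaling, where no histone gene was called. The lowest male slope was that of his-17, at -1.30 ± 0.34 (adjusted p = 0.0995).

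**Figure D5:**
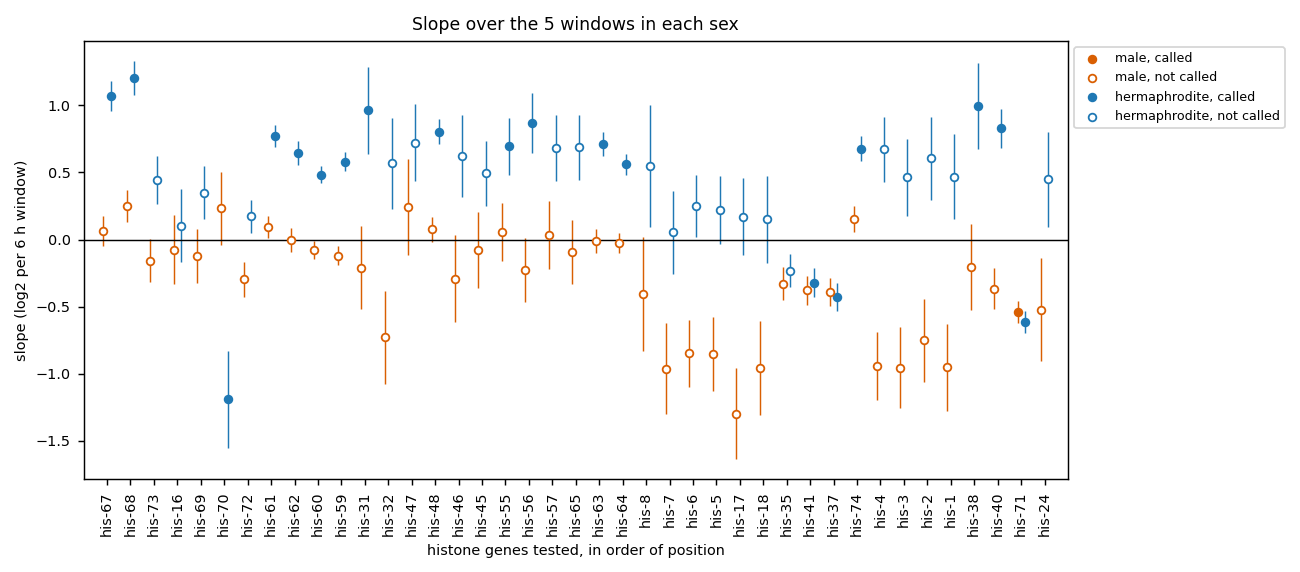
Slope (log2 per 6 h window) of each of the 41 tested histone genes in males and hermaphrodites, with the approximate SE as bars and filled points for slopes called at an adjusted p under 0.05. Hermaphrodite points lie above male points for most genes, the reverse holds for his-70, and both lie close together for his-35, his-41, his-37 and his-71.

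The difference of slopes itself was tested in a fit with the window as a block. The slope was lower in males than in hermaphrodites for 24 of the 41 tested genes (58.5%) and higher for 0, where 10.2% of all genes tested were lower and 5.6% higher. The median difference was -0.74 over the tested histone genes and 0.05 over all genes tested. Over all genes 892 differences were higher and 1627 lower, against 777 and 630 with library size only, where 21 histone genes were lower and 0 higher. The largest differences were those of his-4 (-1.65 ± 0.22, adjusted p = 0.0239), the H4 gene his-1 (-1.52 ± 0.21, adjusted p = 0.0239) and his-17 (-1.52 ± 0.24, adjusted p = 0.0255). His-1 had 106, 15.7, 4.16, 3.02 and 8.17 CPM in males and 91.2, 25.6, 28.4, 135 and 275 CPM in hermaphrodites. The difference for his-70 was 1.19 ± 0.32 (adjusted p = 0.0524). The fit has 3 residual degrees of freedom, and no histone gene was called when the libraries of any window but the first were left out, or without the male library of 54 to 58 h alone.

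Histone genes without a his name were read beside these. Of 11 such genes (linker, H2A.Z, sperm H2A and centromere histones) 10 were tested. In young adults 6 were lower in males and 1 was higher, with a median log2 ratio of -2.29. Of all genes tested, 29.6% were lower and 33.2% higher. The H2A.Z gene htz-1 had 64.0, 45.1, 51.6, 41.0 and 36.4 CPM in males and 67.8, 73.1, 107, 216 and 316 CPM in hermaphrodites, a ratio of -2.78 ± 0.26 in young adults (adjusted p = 0.000789). The centromere histone gene hcp-3 was at -1.85 ± 0.20 (adjusted p = 0.00105) and its relative cpar-1 at -3.42 ± 0.30 (adjusted p = 0.000684). The higher gene was htas-1, an H2A variant known from sperm, with 13.5, 36.7, 59.7, 75.9 and 100.003 CPM in males and 0.521, 10.2, 14.5, 4.37 and 0.270 CPM in hermaphrodites, a ratio of 5.22 ± 0.98 (adjusted p = 0.00558). Over all 5 windows htas-1 was the 1 gene of this list called, at 3.86 ± 0.96 (adjusted p = 0.0348). With age 5 of the 10 genes rose in hermaphrodites and 0 fell, and 6 had a lower slope in males. The shares of all genes tested were 20.9%, 16.9% and 10.2%.

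Genes that process histone mRNA or carry and load histones were lower in young adult males as well. All 14 of this list were lower in males in young adults (median log2 ratio -1.78), where 29.6% of all genes tested were. All 14 rose with age in hermaphrodites and 10 had a lower slope in males (20.9% and 10.2% of all genes tested). No male slope was called in either direction, where 0.276% of all genes tested rose and 0.314% fell. This does not show that the male levels of the 14 were steady. The gene cdl-1, which encodes the protein that binds the histone stem-loop, had 29.8, 31.4, 33.4, 28.5 and 31.0 CPM in males and 31.6, 48.9, 80.6, 168 and 208 CPM in hermaphrodites, a ratio of -2.66 ± 0.22 in young adults (adjusted p = 0.000581). The histone chaperone gene nasp-2 had the lowest ratio of the list, -3.39 ± 0.23 (adjusted p = 0.000404). None of the 14 was called over all 5 windows.

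The S phase genes, which make nucleotides and replicate DNA, were lower in males as well. All 12 were lower in males in young adults (median log2 ratio -3.43) and 7 over all 5 windows. Of all genes tested, 29.6% and 3.56% were lower in these comparisons. All 12 rose with age in hermaphrodites and had a lower slope in males (20.9% and 10.2% of all genes tested). No male slope of the 12 was called, where 0.276% of all genes tested rose and 0.314% fell. The ribonucleotide reductase gene rnr-1 had 29.0, 33.1, 26.8, 20.4 and 25.4 CPM in males and 41.0, 70.9, 152, 356 and 437 CPM in hermaphrodites. Its ratio in young adults was -4.11 ± 0.24 (adjusted p = 0.000295).

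Sperm chromatin genes went the other way. All 7 were higher in males both in young adults (median log2 ratio 5.40) and over all 5 windows (3.84). Of all genes tested, 33.2% and 15.3% were higher in these comparisons. The slopes of the 7 were called in neither sex. The gene spch-1, for a small basic protein of sperm chromatin, had 129.8, 182, 328, 483 and 425 CPM in males and 6.57, 50.7, 56.0, 17.8 and 2.16 CPM in hermaphrodites. The hermaphrodite values were highest in the L4 windows, as were those of his-70 at 36 to 40 h and htas-1 at 36 to 46 h.

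Most markers of germ cells and the tested ones of oocytes and embryos were also lower in young adult males. Their part in the results above was not tested. Of 7 germline markers of both sexes, 6 were lower in young adult males (not syp-1, adjusted p = 0.114 by edgeR), where 29.6% of all genes tested were. With RLE factors or with library size only, 5 were lower. The log2 ratios of the 6 ran from -3.46 for gld-1 to -0.57 for him-3. The 7 summed to 287, 334, 388, 440.1 and 374 CPM in males and to 324, 473, 806, 1488 and 1507 CPM in hermaphrodites. Of the last 2 hermaphrodite sums, gld-1 alone held 560 and 545 CPM. All 5 oocyte markers were lower in young adult males, and they summed to 145, 251, 436, 463 and 484 CPM in males and to 128, 446, 3505, 8417 and 10573 CPM in hermaphrodites. Of 10 early embryo markers 3 were tested, and all 3 were lower in young adult males. For pes-10 and vet-6 the filter fixed this direction, because they reached 1 CPM only in the 2 young adult hermaphrodite libraries. The third, nhr-2, also reached 1 CPM in male libraries. The 10 summed to 0.633 to 2.39 CPM in males and to 1.15, 0, 2.86, 29.1 and 56.8 CPM in hermaphrodites, and pes-10, a gene of the earliest embryonic transcription, was at 0 in the hermaphrodite libraries up to 46 h and at 2.62 and 7.36 CPM in those of young adults. The 3 sperm markers, of which gsp-3 is also 1 of the 7 sperm chromatin genes, were higher in young adult males. They summed to 86.0 to 415 CPM in males and to 2.23 to 63.5 CPM in hermaphrodites. In the 2 male young adult libraries gsp-3 alone held 391 and 341 CPM of these sums.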

How the data were processed

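Whole-animal RNA of him-5 worms was read in 10 libraries, 1 per sex and window, made from total RNA taken with TRIzol, per the labels' protocols. The files the authors deposited hold raw counts of reads for each gene; the submitters' processing notes name CASAVA 1.8 and HTSeq. Which aligner, build and strand setting were used is not given in the sources used here, so reads of overlapping genes are uncertain. Any poly(A) selection is not given either, which matters here because most core histone mRNA ends without a tail. Each table lists 46589 genes and 5 totals that name no gene (reads on no feature 2.18% to 3.982%, ambiguous 0.3214% to 0.7452%, not aligned, of low quality, or aligned to several places), which were left out.

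Names, positions and lengths came from Ensembl release 115 (WBcel235), where 46183 sequence names matched; coordinates count from 1. Where Ensembl gives copies 1 shared symbol, the RefSeq symbol of the same locus tag was used (all 72 matched, 22 differed). Classes rest on coding length, and for H1 and H3.3 on textbook knowledge. Protein, promoter and genome sequences were not used here.

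Counts were scaled by TMM and tested in edgeR 4.0.16 (R 4.3.3) by quasi-likelihood, on genes that reached 1 CPM in 2 or more libraries (15924; 15849 in young adults, where genes without reads drop out), with Benjamini-Hochberg adjustment over all genes and a threshold of 0.05. Fits were sex with window as a block, sex in young adults, a slope per sex, and the difference of slopes with window as a block. An approximate SE is the log2 value over the square root of F. The test was checked on simulated data. Alternatives were other scalings, DESeq2 1.42.0, other filters, a threshold of 0.01, the block, and leaving out libraries. Genes given in every library were the 3 of highest level per class, the variants, and in each comparison the 3 called genes of largest change per direction; further genes were added after their values were seen. The members and lists were chosen with earlier results of these data known. Each value rests on 1 library, and counting error is only part of its error.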

Additional observations from a re-analysis of the deposited data

Results flagged for a closer look

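In 24 histone genes the slope per window was lower in males than in hermaphrodites by the test of the difference itself (edgeR's quasi-likelihood test, window as a block, Benjamini-Hochberg adjustment over all genes). On chromosome V the difference in log2 per window was -1.65 for his-4, -1.52 for his-1, -1.52 for his-17, -1.49 for his-3, -1.36 for his-2, -1.18 for his-18, -1.12 for his-6, -1.08 for his-5 and -1.04 for his-7. On chromosome IV it was -1.29 for his-32 and -1.20 for his-31, and then -0.74 for his-63, -0.74 for his-48, -0.71 for his-59, -0.68 for his-61, -0.66 for his-62, -0.60 for his-64 and -0.57 for his-60. On chromosome I it was -1.03 for his-67 and -0.96 for his-68. On chromosome X it was -1.23 for his-40 and -0.92 for the linker histone gene his-24. The H3.3 genes his-74 and his-72 had -0.53 and -0.49. All of these calls were lost when any window other than 30 to 34 h was left out, and over all genes none was called in those fits either.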

How the results depend on the processing

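The count of histone genes called in young adults, 35, was 25 to 38 under every alternative run, 25 to 33 with 1 library left out (the lone library of a sex is then assumed to vary like the others), and 30 with the window as a replicate block. Over 5 windows the count of 5 was 3 with library size only, 22 with DESeq2, 16 with no filter, 1 with at least 5 CPM in 5 libraries, 10 with no replicate block, 0 at a threshold of 0.01, and 0 to 12 with 1 window or library left out. The 19 slopes of hermaphrodites were 12 at 0.01 and 11 to 22 with 1 left out. The 1 slope of males was 0 with RLE scaling, 3 with DESeq2, 0 without ribosomal RNA and mitochondrial genes, 0 at 0.01, and 0 to 0 with 1 left out. The 24 differences of slopes were 12 with no replicate block, 0 at 0.01 and 0 to 24 with 1 left out. The causes were not tested, beyond the fewer samples of the fits with 1 left out. Of all genes, the test over 5 windows called 2436 higher and 567 lower, against 1904 and 457 with library size only. For most other settings of this paragraph the share of all genes is not given here. The counts alone therefore do not show a change particular to histone genes. The ratio of summed histone reads in young adults was 0.212 to 0.271 under its 4 alternatives, against 0.219. For the 18 values of single genes named by rule, 160 alternative fits kept direction and call, 58 kept direction and lost the call, and none reversed. Called in every fit with 1 left out were his-4, his-3, his-17 and his-70 in young adults, and his-67, his-68 and his-71 for the hermaphrodite slope. The 31 low copies could not be tested at the depth their uniquely placed reads give.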

Other observations

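The genes outside the histone list whose log2(CPM + 1) over the 10 libraries was most like that of the summed histone genes, among 10777 tested genes of at least 5 CPM on average, were F23H11.4 (Pearson r = 0.996), rbm-17 (0.995), npp-4 (0.992), npp-3 (0.991) and Y111B2A.12 (0.991). These are the 5 highest of many values, the points share their libraries and depth, and they are given as a description. The nucleoporin gene npp-3 had 185, 155, 137, 149 and 142 CPM in males and 202, 163, 257, 429 and 472 CPM in hermaphrodites, in order of time. The hermaphrodite values of npp-3 were lowest at 36 to 40 h, as were those of the summed histone genes, but npp-3 was picked for such likeness.

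Among the copies with few reads, the H3 genes his-9 and his-25 of the chromosome II cluster were uneven between libraries. In hermaphrodites his-9 had 6, 25, 0, 3 and 3 reads and his-25 had 5, 20, 0, 1 and 3 reads, so the library of 36 to 40 h held 25 of all 49 reads of his-9 and 20 of all 53 reads of his-25. In males his-9 had 4, 4, 1, 3 and 0 reads and his-25 had 7, 15, 0, 1 and 1 reads. Both share the Ensembl symbol his-9 with his-13, which had 15 reads in all. These genes were chosen after their values were seen, and the sampling error of such counts is large.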
